A study of Mus musculus with 4 samples.

Results

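Accessible chromatin was described at 10 genes whose proteins fold, hydroxylate or cut procollagen: *Serpinh1*, *P4hb*, *P4ha1*, *P4ha2*, *Plod1*, *Plod2*, *Plod3*, *Fkbp10*, *Crtap* and *Bmp1*. A peak was counted for a gene when it overlapped, by at least 1 bp, the gene body of the GENCODE vM21 annotation or the 20 kb on either side. The genes were chosen by function, as 10 of 21938 protein-coding genes, and no measured value entered the choice. Of 21176 control female peaks, 26 lay in their intervals, as did 48 of 41444 VEDS male peaks. The control male library had 0 of its 1236 peaks there, and the VEDS female library 1 of 504.

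Procollagen chains are modified in the endoplasmic reticulum before 3 of them wind into a triple helix. Prolyl 4-hydroxylases make the hydroxyprolines that hold the helix together, lysyl hydroxylases make the hydroxylysines used for sugars and crosslinks, and chaperones and prolyl isomerases keep the chains in register while they fold. Outside the cell, proteinases cut off the propeptides so that fibrils can form. In the aortic wall, smooth muscle cells and fibroblasts are the main makers of fibrillar collagen, and type III collagen is the one affected in vascular Ehlers-Danlos syndrome (VEDS).

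ATAC-seq, in which the transposase Tn5 cuts accessible DNA, was performed on nuclei from aortas of mice at 60 days of age, with no drug named in the labels. Controls carried the genotype Col3a1+/+ and VEDS mice Col3a1G938D/+, a glycine-to-aspartate substitution in 1 *Col3a1* allele. Each genotype had 1 female and 1 male library, and each library pooled aortas of 2 mice, so that replicates of a genotype also differed in sex. The kit was a single-cell one, but each library was listed in aggregate over all cell types. No difference between genotypes was tested, because 2 libraries a side leave 0.333 as the smallest p that exact permutation can reach (two-sided).

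The 4 lists differed widely in depth, which bears on every comparison that follows. Depth here means fragments at called peaks, as library totals were not used. The median number of fragments at a summit (the base of a peak where most fragments overlap) was 22 in the VEDS male list and 14 in the control female list, which are called the long lists here. It was 7 and 6 in the short lists, the control male and the VEDS female one. A missing peak in a short list was not taken as closed chromatin. Promoters of smooth muscle marker genes had a peak for 6 of 6 genes in both long lists. Of the endothelial markers, 1 of 5 had one in the control female list and 4 of 5 in the VEDS male list. Fibroblast markers had one for 3 of 5 and 2 of 5, with *Dcn* and *Lum* in neither. Leukocyte markers had one for 0 of 5 and 1 of 5 (*Csf1r*), adipocyte markers for 0 of 4 and 1 of 4 (*Plin1*), and striated muscle markers for 0 of 5 and 1 of 5 (*Ckm*). No marker of any list had a promoter peak in a short list. As a check of the labelled sex, promoters of 4 genes of chromosome Y (*Kdm5d*, *Uty*, *Ddx3y* and *Eif2s3y*) had a peak for 0 genes in both female libraries, while the male libraries had 1 (control) and 3 (VEDS). The control female list still had 15 peaks elsewhere on chromosome Y, beside 30 in the control male, 46 in the VEDS male and 0 in the VEDS female list. The *Xist* promoter had no peak in any list. The part of other cell types in the peaks described here was not tested. In such aggregate libraries, more nuclei of a type and more accessible chromatin per nucleus cannot be told apart.

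None of the 10 genes was without a peak in either long list, against 35.9% of protein-coding genes in the control female list and 26.5% in the VEDS male list. In the control female list they held between 1 and 5 peaks each, with a median of 2.5, where the median protein-coding gene held 1. In the VEDS male list they held between 1 and 7, with a median of 5 against 2. Per 100 kb of interval the genes held 3.85 and 7.1 peaks, against 1.66 and 2.94 over all protein-coding genes. These intervals include neighboring genes, and the nearest TSS was that of the gene itself for 14 of 26 and 26 of 48 peaks. In the control female list no peak lay nearest to a TSS of *Plod1*, *Fkbp10* or *Crtap*. The *Plod3* peak of both long lists lay on a TSS of *Plod3* and on one of *Znhit1*, and these counts give it to *Znhit1*. *P4ha2* was the richest locus in the control female list, with 5 peaks. *P4ha2* and *Fkbp10* had 7 each in the VEDS male list, of which 7 and 2 lay nearest to a TSS of the gene. *Plod3*, a short gene in a crowded neighborhood, had 1 peak in each.

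**Figure D1:**
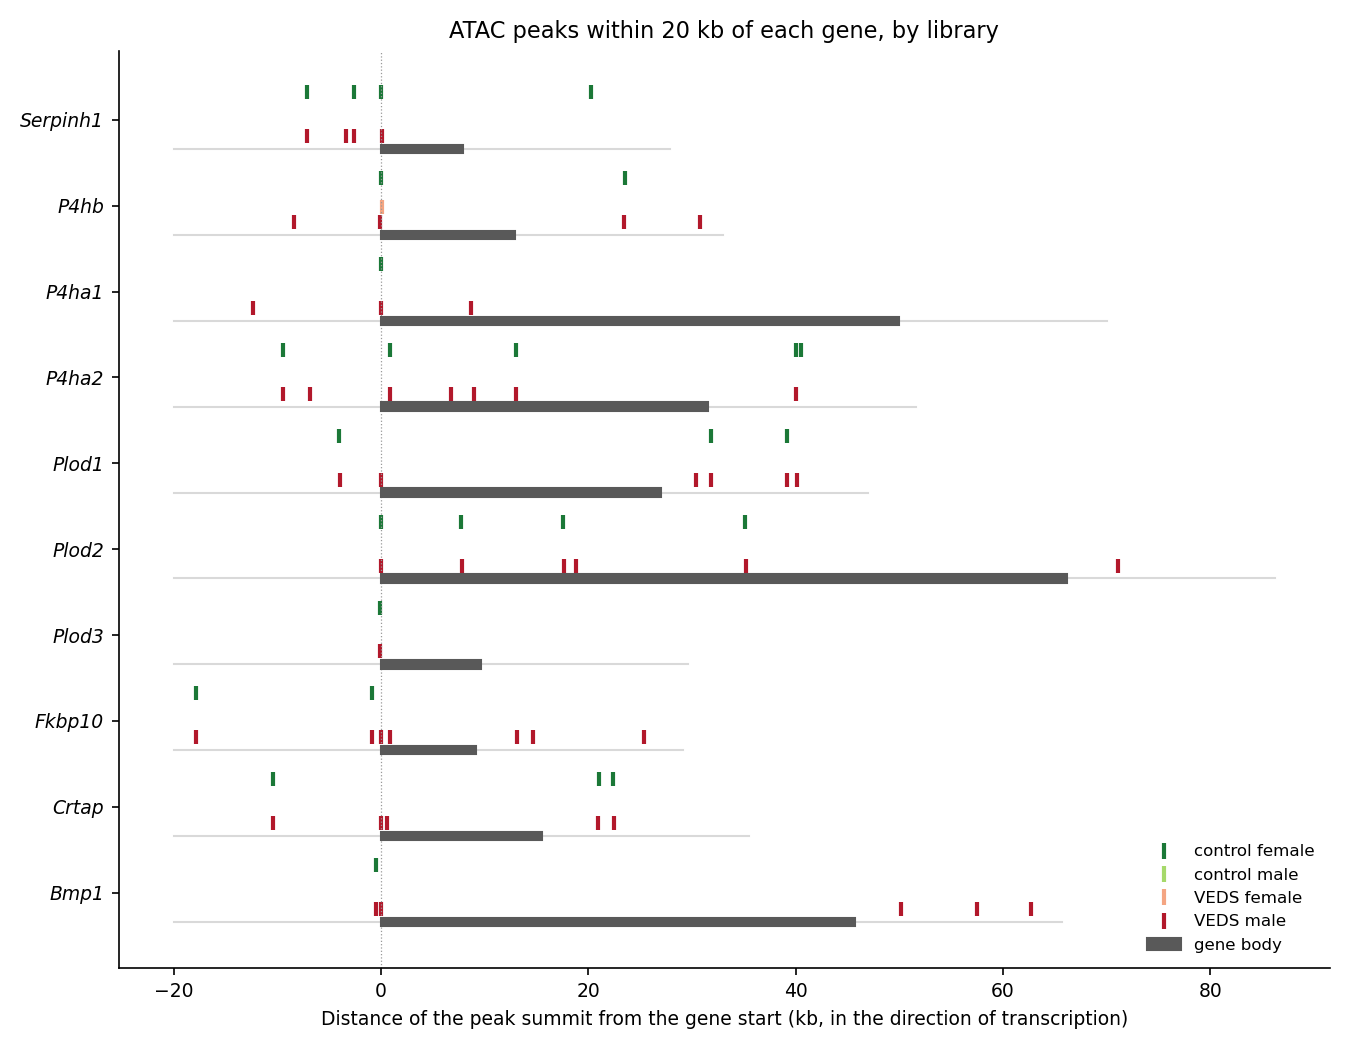
Peak summits within 20 kb of each gene, by distance from the gene start in kb along the direction of transcription; each tick is 1 peak and its color the library. The 48 VEDS male ticks include a counterpart of 25 of the 26 control female ticks, and the only tick of a short list lies at the *P4hb* start.

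A promoter peak, overlapping the 3 kb on either side of any annotated transcription start site (TSS), was present in the control female list for 8 of 10 genes, against 47.4% of protein-coding genes. In the VEDS male list it was present for 10 of 10, against 58.5%. The control male list had such a peak for 0 of the 10 genes, with 1.56% of protein-coding genes called. The VEDS female list had it for 1 gene, *P4hb*, with 1.49% called. A peak lying directly on a TSS of the gene was found for 6 genes in the control female list and for 10 in the VEDS male list. The share of all protein-coding genes was not counted for this stricter rule, so nothing is read from these 2 counts. The 4 genes without one in the control female list were *Plod1*, *Crtap*, *Fkbp10* and *Bmp1*. The highest promoter peak of each gene, ranked by −log10 q within its list from rank 1 downward, lay at a median of the top 19.7% of the control female list and the top 21.2% of the VEDS male list. Over all protein-coding genes with a promoter peak, these medians were 28.1% and 18.6%.

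**Figure D2:**
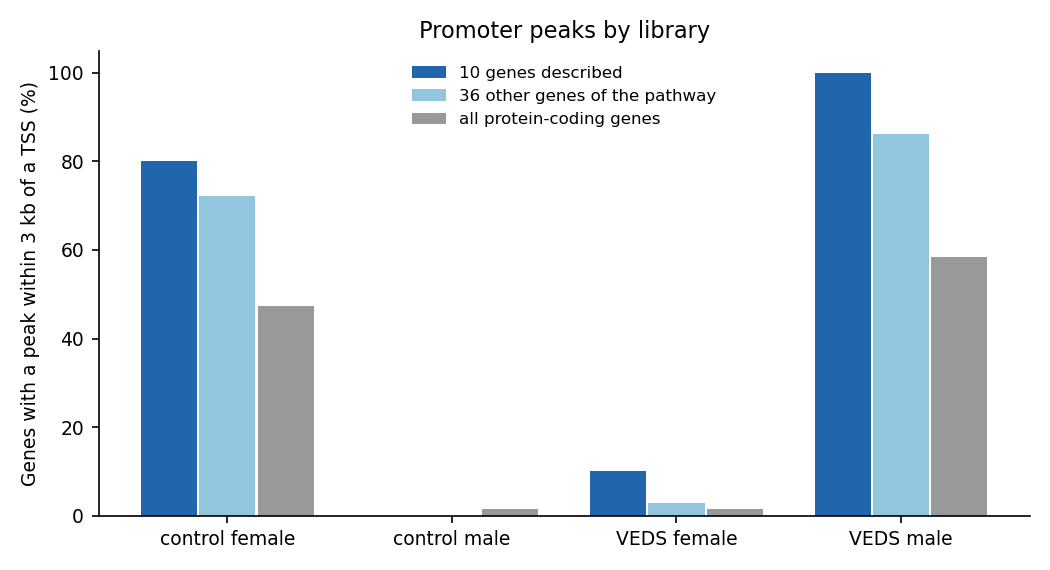
Percent of genes with a peak within 3 kb of a TSS in each library, for the 10 genes described, 36 other genes of collagen folding, modification and processing, and all protein-coding genes. In the long lists the 10 genes reach 80.0% and 100%, and in the short lists 0% and 10.0%, the latter from *P4hb* alone.

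The 75 peaks of the 4 lists merged into 49 separate regions. In all, 24 regions were in both long lists, 24 were in the VEDS male list alone and 1 was in the control female list alone. Of the 24 in both long lists, 10 lay within 3 kb of a TSS of the gene and 17 within 3 kb of any TSS, and of the 24 in the VEDS male list alone 8 and 16. Of the control female peaks, 25 of 26 (96.2%) overlapped a VEDS male peak, against 95.0% of all control female peaks. Of the VEDS male peaks, 24 of 48 (50%) overlapped a control female peak, against 47.6% of all. Both shares were thus close to those of the whole lists. In shared regions the summits of the long lists lay a median of 36 bp apart, within 50 bp in 14 of 24 and at most 153 bp apart. The ranks of the 24 regions in the 2 lists had a Spearman rho of 0.808. Over the whole lists, 19757 pairs of a control female summit inside a VEDS male peak had 0.792. The 2 values rest on different pairing rules. Each is a likeness across sites, which share base composition and mappability, and not across replicates.

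Shared and unshared peaks of the VEDS male list differed in height. The 24 shared peaks had a median of 41 fragments and a width of 419.5 bp, and the 24 unshared peaks 19 fragments and 224.5 bp. When the VEDS male list was cut by rank into 5 equal groups, 8 of 9 peaks of these genes in the top group had a control female counterpart, followed by 11 of 15, 4 of 10, 1 of 7 and 0 of 7 in the lower groups. For all peaks of the list the same shares fell from 97.6% through 75.1%, 39.6% and 18.1% to 7.52%. A change at the 24 regions listed only in the VEDS male library cannot be told apart from the greater depth of that list. The 1 region of the control female list alone lay in an intron of *Map6*, nearest to the TSS of the noncoding gene Gm45591, beyond the 3′ end of *Serpinh1*. It had 7 fragments and ranked 19515 of 21176.

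The chaperones are described first. *Serpinh1* (chr7:99345376-99353239, minus strand) encodes HSP47, which binds the procollagen triple helix and travels with it to the Golgi. Its promoter peak had 25 fragments in the control female list, rank 5530, and 66 in the VEDS male list, rank 6152. It spanned the gene start in both, with summits 20 bp before and 75 bp after it. Upstream lay a chain of further peaks. The first, 2641 bp before the start in the control female list and 2642 bp before it in the VEDS male list, had 16 and 46 fragments. The next, 3426 bp before the start, was listed in the VEDS male library alone, with 33 fragments. The last, 7186 and 7143 bp before the start, had 19 and 51 fragments. The fold enrichment of the 3 upstream peaks was between 3.29 and 6.60 in the VEDS male list, against 7.63 at the promoter.

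The heat shock element and the AP-1 sites of *Serpinh1* are shown, since it was the member with the most AP-1 sites, as 30-base stretches in the direction of transcription. A heat shock element (GAA, TTC and GAA spaced by 2 bases, read on either strand) started 49 bp after the gene start, in an untranslated exon and inside the promoter peak of both long lists. Heat shock elements bind heat shock factors, and *Serpinh1* is a known heat-inducible gene. The same pattern occurred in 0.559% of the control female windows and 0.551% of the VEDS male windows of 300 bp around all summits. The AP-1 consensus TGACTCA or TGAGTCA, the site of FOS and JUN dimers, occurred once at each of the 3 upstream peaks. The site 2512 bp upstream crossed the edge of the VEDS male peak and lay outside the control female peak. The other two lay inside the called peaks. In the lines that follow, capitals mark the match.
Serpinh1 heat shock element, chr7:99353170-99353199: tttccaactTTCCAGAAGTTTCttgggaca
Serpinh1 AP-1 site 2512 bp upstream, chr7:99355734-99355763: ttctaaggagatTGAGTCAgccgattccca
Serpinh1 AP-1 site 3442 bp upstream, chr7:99356664-99356693: ttgcagaattccTGACTCAcgcttgggcag
Serpinh1 AP-1 site 7231 bp upstream, chr7:99360453-99360482: gtgtttccctccTGAGTCAgagcagactga

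*Fkbp10* (chr11:100415697-100424824, plus strand) encodes FKBP65, a prolyl isomerase and chaperone of collagen. It lies head to head with *P3h4*, whose product works with the lysyl hydroxylases. The control female list had 1 peak between the pair, with a summit 886 bp before the *Fkbp10* start in the untranslated exon of *P3h4*, and 20 fragments. The VEDS male list had that peak, with 44 fragments, and another on the *Fkbp10* start itself, with 43 fragments and rank 12017. A lower VEDS male peak lay in intron 1, with 18 fragments. The remaining peaks of the interval belonged to neighbors. The promoter of *Jup*, the gene of plakoglobin, had 28 and 76 fragments in the long lists, and *Nt5c3b* had 3 peaks in the VEDS male list alone.

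Among the prolyl hydroxylases, *P4ha1* (chr10:59323296-59373304, plus strand), which encodes the main catalytic alpha subunit of prolyl 4-hydroxylase, had the highest-ranked promoter peak of the 10 genes in both long lists. It had 38 fragments at rank 440 of 21176 in the control female list, and 87 fragments at rank 537 of 41444 in the VEDS male list. The summits lay 23 and 21 bp before the gene start. The peak covered 188 and 231 of the 250 bases before the start. A further VEDS male peak lay 12304 bp upstream, with 19 fragments, and 1 in intron 1, with 10 fragments.

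*P4ha2* (chr11:54100095-54131665, plus strand), the gene of the other widely expressed alpha subunit, had 2 promoter peaks in the control female list and 4 in the VEDS male list, of which 2 were shared. The peak at the RefSeq start, with summits 833 and 835 bp into the GENCODE gene record, had 14 fragments in the control female list and 34 in the VEDS male list. The other peak, in intron 5 of 15, lay on an annotated internal TSS with summits 12987 and 13013 bp into the gene, and was higher, with 37 fragments at rank 1408 and 74 at rank 2795. The internal start thus outranked the first one in each list. The 2 promoter peaks of the VEDS male list alone were lower, in intron 2 near further annotated TSS, with 18 and 19 fragments.

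The upstream side of *P4ha2* held a shared intergenic peak, 9504 and 9430 bp before the gene start, with 14 and 29 fragments. It contained both an AP-1 site and, further upstream, the TEAD consensus CATTCCA on the other strand. TEAD proteins are the DNA-binding partners of YAP and TAZ. A VEDS male peak 6870 bp upstream, with 27 fragments, held a CTCF core sequence. These 3 sites are given in the direction of transcription, with the match in capitals.
P4ha2 AP-1 site 9475 bp upstream, chr11:54090609-54090638: cctttttgtatTGAGTCAgggaattgggcc
P4ha2 TEAD site 9548 bp upstream, chr11:54090536-54090565: tctgagcattcTGGAATGtgtcagatgcag
P4ha2 CTCF core 6906 bp upstream, chr11:54093180-54093209: ttgtggctaCCACTAGGTGGCctcactcca

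The highest peak of any of the 10 intervals also belonged to *P4ha2* by distance. It lay in intergenic DNA 40045 bp past the gene start in the VEDS male list, with 128 fragments at rank 59 of 41444. The control female list had 2 peaks there, with 40 fragments at rank 311 and 22 at rank 4993. The nearest TSS, of *P4ha2*, was 12352 bp away. In the VEDS male peak 51.9% of bases were masked as repeats in the reference, and in the higher control female peak 74.0%. Such peaks were common at the top of the lists: among the 100 highest of each long list, 39 (control female) and 41 (VEDS male) were over 50% masked, against 3.9% and 5.1% of all peaks. The part of repeat mapping in this peak was not tested.

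*P4hb* (chr11:120560298-120573253, minus strand) encodes protein disulfide isomerase, which is also the beta subunit shared by the prolyl 4-hydroxylases. Its promoter was the only region of the 10 genes listed in 3 libraries. It had 32 fragments in the control female list, at rank 2638, and 71 in the VEDS male list, at rank 3955. In the VEDS female list it had 8 fragments, at rank 177 of 504. The control male list held no peak there. The *P4hb* peak was also broad, at 592, 731 and 295 bp in the order control female, VEDS male and VEDS female. The remaining peaks of its interval lay at the promoter of *Mcrip1* (14 and 38 fragments), in intergenic DNA beyond it (18, VEDS male alone) and at the promoter of *Arhgdia* (22, VEDS male alone).

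The 250 bases before the RefSeq start of the 3 prolyl 4-hydroxylase subunit genes are shown because their products form 1 enzyme and their promoters can be compared. They are written in the direction of transcription from the GRCm38.p6 reference, and capitals mark matches to the hypoxia response element ACGTGC, the GC box GGGCGG, the CCAAT box and the ETS consensus CCGGAAG, on either strand.
P4ha1, chr10:59323046-59323295, plus strand: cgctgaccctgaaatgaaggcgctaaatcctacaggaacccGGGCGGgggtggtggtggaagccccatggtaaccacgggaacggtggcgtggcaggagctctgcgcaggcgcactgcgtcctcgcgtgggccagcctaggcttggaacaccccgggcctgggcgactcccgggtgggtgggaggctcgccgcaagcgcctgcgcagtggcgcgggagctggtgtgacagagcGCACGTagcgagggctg
P4ha2, chr11:54100674-54100923, plus strand: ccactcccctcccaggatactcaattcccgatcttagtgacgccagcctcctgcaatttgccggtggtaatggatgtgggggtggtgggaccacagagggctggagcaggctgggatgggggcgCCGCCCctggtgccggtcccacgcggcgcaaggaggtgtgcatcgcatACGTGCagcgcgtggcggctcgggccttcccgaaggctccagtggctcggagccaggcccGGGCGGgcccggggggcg
P4hb, chr11:120573254-120573503, minus strand: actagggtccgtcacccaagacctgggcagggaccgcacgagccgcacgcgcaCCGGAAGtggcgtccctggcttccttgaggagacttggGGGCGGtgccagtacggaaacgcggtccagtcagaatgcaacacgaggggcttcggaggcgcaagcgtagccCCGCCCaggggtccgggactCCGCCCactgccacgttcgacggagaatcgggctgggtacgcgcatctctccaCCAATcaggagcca

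The 2 alpha subunit promoters shared a hypoxia response element, the core sequence bound by HIF. It started 17 bp before the *P4ha1* start, next to the summits, and 78 bp before the *P4ha2* start, at the edge of the control female peak. Both genes are known HIF targets, as is *Plod2*. The *P4hb* promoter held none, but had 3 GC boxes, a CCAAT box 14 bp before the start and an ETS match. Of the 7 members with a RefSeq promoter sequence, 2 held the element, against 5.91% of 32851 promoters. *Plod2*, not among the 7, had it 100 bp before its GENCODE start, inside the peak of both long lists. Counted over the windows of peaks lying on a TSS of these genes, the element was in 3 of 7 windows in the control female list (95% Wilson interval 15.8% to 75.0%) and 3 of 11 in the VEDS male list (9.75% to 56.6%). Windows on any protein-coding TSS held it in 9.82% and 8.91%. Those windows overlap GC-rich promoters, and a match of 6 letters is not a bound site. The 3 windows were those of *P4ha1*, *P4ha2* and *Plod2* in both lists, so that the lists are not separate support. With 17 motifs searched and no test run, nothing is read from these intervals.

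*Crtap* (chr9:114375134-114390675, minus strand) encodes the scaffold of the prolyl 3-hydroxylation complex with P3H1 and cyclophilin B. No control female peak lay within 3 kb of its TSS. The VEDS male list had a peak on the start, with 25 fragments at rank 15977 of 41444, and a low one of 11 fragments 539 bp inside the gene, in coding sequence. Of the VEDS male peaks of that rank group lying on a protein-coding TSS, 80.0% had a control female counterpart. Its complex partners *P3h1* and *Ppib* had a promoter peak in both long lists. The other peaks of the interval were shared ones at neighbors, at the promoter of *Glb1* (10 and 36 fragments) and at the noncoding gene 4930520O04Rik, 2 peaks. The one nearer to *Crtap*, with 14 fragments in the control female list and 51 in the VEDS male list, held the only MEF2 consensus inside a called peak at any of the 10 genes. MEF2 factors are regulators of muscle genes.

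The 3 lysyl hydroxylase genes differed in their promoters. *Plod3* (chr5:136987019-136996648, plus strand), whose product also transfers sugars to hydroxylysine, lies head to head with *Znhit1*. The 2 genes shared a promoter peak with 28 fragments at rank 2829 in the control female list and 78 at rank 1471 in the VEDS male list. Its summits lay 94 and 114 bp before the *Plod3* start, in an untranslated exon of *Znhit1*, so that the peak cannot be assigned to either gene. No other peak lay within 20 kb of *Plod3*.

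*Plod2* (chr9:92542223-92608428, plus strand), which hydroxylates the lysines of the collagen telopeptides, had a lower promoter peak of 17 and 27 fragments, at ranks 6911 and 17762. Its summit was 17 bp after the start in both lists. *Plod2* was the locus with the most shared intronic peaks. In intron 1, a peak 7743 bp into the gene had 18 fragments in the control female list, 1 more than the promoter, and 31 in the VEDS male list. Another in intron 1 had 8 and 20 fragments and held a TEAD consensus. One in intron 3 of 18, had 6 and 17. The last, in intron 1, was listed in the VEDS male library alone, with 14.

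*Plod1* (chr4:147909753-147936767, minus strand), which hydroxylates lysines of the helix, had no promoter peak in the control female list. The VEDS male list had one on the start, with 34 fragments at rank 15587. The neighboring promoters of *Mfn2*, with 12 and 36 fragments, and of 2510039O18Rik, with 21 and 44, were in both long lists. An SRF consensus, the CArG box of smooth muscle genes, was found in 1 VEDS male peak of 23 fragments in an intron of *Mfn2*. That peak lay 40078 bp from the *Plod1* start, and no other window of the 10 genes held the consensus. It was in 3.02% of all control female and 3.09% of all VEDS male windows.

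*Bmp1* (chr14:70474558-70520234, minus strand) encodes the procollagen C-proteinase, which removes the C-propeptides and also activates lysyl oxidase. Its highest promoter peak was the lowest among those of the 10 genes in either long list. The control female list had 1 peak, 441 bp before the gene start, with 12 fragments at rank 14021 of 21176. The VEDS male list had a peak there, with 20 fragments at rank 26889 of 41444, and one on the start itself, with 16 fragments at rank 34494. Past the 3′ end, 3 VEDS male peaks lay nearest to *Phyhip*, with 9 to 20 fragments, and 1 of them held 2 AP-1 sites.

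**Figure D3:**
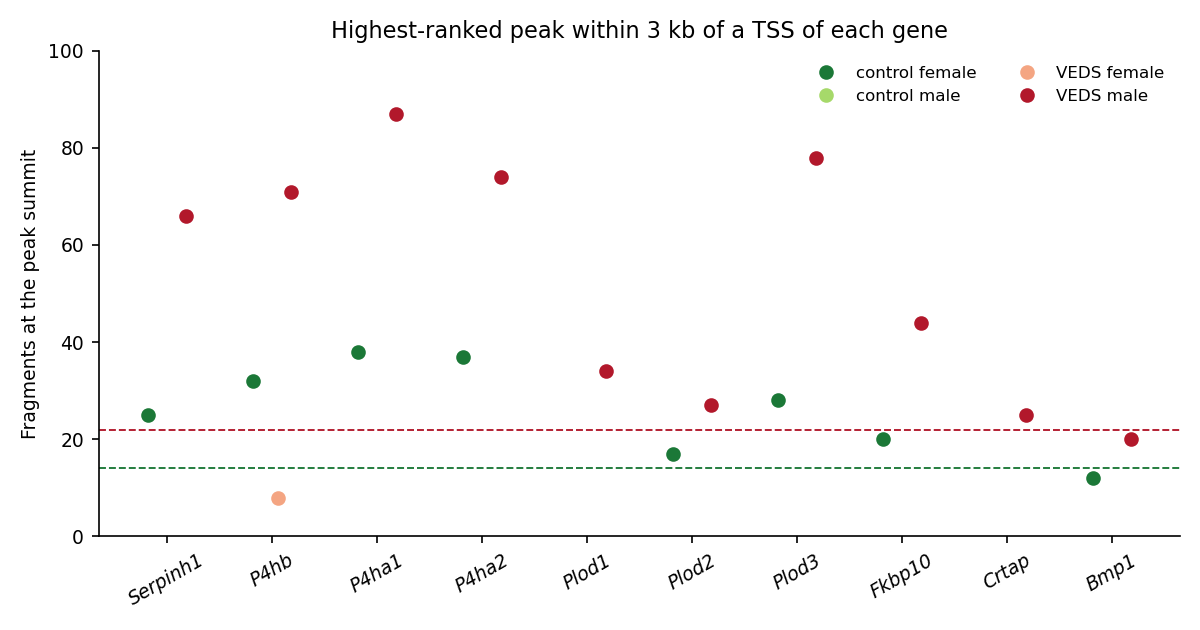
Fragments at the summit of the highest-ranked peak within 3 kb of a TSS of each gene, by library, with dashed lines at the list medians of 14 (control female, green) and 22 (VEDS male, red). *P4ha1* was highest in both long lists, with 38 and 87 fragments, and the points of *P4ha2* are those of its internal TSS. The points of *Fkbp10* are those of the peak at the *P3h4* TSS, and the *Plod3* peak is shared with *Znhit1*. *Plod1* and *Crtap* have no control female point, and *P4hb* alone has a point of a short list.

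The heights of the highest-ranked promoter peaks can be set side by side within a list. In the control female list the order from the top was *P4ha1* (38 fragments), *P4ha2* (37), *P4hb* (32), *Plod3* (28), *Serpinh1* (25), *Fkbp10* (20), *Plod2* (17) and *Bmp1* (12). In the VEDS male list it was *P4ha1* (87), *Plod3* (78), *P4ha2* (74), *P4hb* (71), *Serpinh1* (66), *Fkbp10* (44), *Plod1* (34), *Plod2* (27), *Crtap* (25) and *Bmp1* (20). The leading 5 genes were the same in both lists, with *P4ha2* placed by its internal TSS. *Plod3* was placed by the peak it shares with *Znhit1*, and *Fkbp10* by the peak at the *P3h4* TSS. On the *Fkbp10* start itself only the VEDS male list had a peak, with 43 fragments. At the RefSeq start *P4ha2* had 14 and 34 fragments, fewer than the 20 and 44 listed for *Fkbp10*. There was no replicate for any of these values, so that neighbors in the order were not separated. The medians, 26.5 and 55 fragments, stood beside 19 and 42 for all protein-coding genes with a promoter peak.

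Of 36 other genes of collagen folding, modification and processing, the control female list had a promoter peak for 26 (72.2%, against 47.4% of protein-coding genes). The VEDS male list had one for 31 (86.1%, against 58.5%). The control male list had one for 0 and the VEDS female list for 1, *Hsp90b1*, the gene of the chaperone GRP94. Neither long list had one at *Colgalt2*, *Tll1*, *Tll2*, *Creb3l1* or *Mbtps2*. *Colgalt2* encodes a collagen galactosyltransferase, *Tll1* and *Tll2* relatives of *Bmp1*, and *Creb3l1* and *Mbtps2* a stress-activated transcription factor and the protease that releases it. Genes with a peak in the VEDS male list alone were *P3h3*, *P4ha3*, *Pcolce2*, *Loxl2* and *Loxl4*. *P3h4*, the partner of *Fkbp10* across the shared promoter region, had one in both.

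Motif matches were counted over all peaks of the 10 genes. AP-1 was in 4 of 26 control female windows (15.4%, 95% Wilson interval 6.15% to 33.5%), against 11.6% of all windows of that list. In the VEDS male list it was in 8 of 48 (16.7%, 8.70% to 29.6%), against 11.6%. On a TSS of the 10 genes it was in 0 of 7 and 0 of 11 windows, against 3.32% and 3.4% on any protein-coding TSS. MEF2 was in 1 of 26 windows (3.85%), against 5.55%, and in 2 of 48 (4.17%), against 5.79%. TEAD was in 4 of 26 (15.4%, 6.15% to 33.5%), against 6.08%, which is just below the interval, and in 6 of 48 (12.5%, 5.86% to 24.7%), against 6.27%. The E-box CACGTG was in 5 of 26 (19.2%, 8.51% to 37.9%), against 8.16%, and in 5 of 48 (10.4%, 4.53% to 22.2%), against 6.96%. With 17 motifs searched and no test run, nothing is read from these 2 intervals. The hypoxia response element ACGTGC was in 4 of 26 (15.4%), against 7.16%, and in 4 of 48 (8.33%), against 6.13%. One TEAD match lay at the *P4hb* start and was inside the peak in all 3 lists that held it.

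Elements of the unfolded protein response were searched because many of these proteins reside in the endoplasmic reticulum. The ERSE (CCAAT and CCACG spaced by 9 bases), ERSE-II (ATTGG and CCACG spaced by 1 base) and UPRE (TGACGTGG) had no match in any window of the 10 genes. They were rare in the lists too, with 0.0757%, 0.0568% and 0.885% of control female windows. The ATF4 element TGATGCAA (CARE) had 1 match, 7074 bp upstream of *Serpinh1*, in the window of both long lists. It was in 0.634% of all control female and 0.701% of all VEDS male windows. The CRE (TGACGTCA) and the NFI palindrome (TTGGC and GCCAA spaced by 5 bases) had none. Over all windows of the 2 lists, the CRE was in 2.59% and 1.77%, and the NFI palindrome in 0.0521% and 0.0556%. GC boxes were in 6 of 7 RefSeq promoters of these genes, against 35.7% of all promoters. In the windows of peaks on a TSS, where the comparison is with other open promoters, they were in 5 of 7 against 73.6% and in 9 of 11 against 70.9%.

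**Figure D4:**
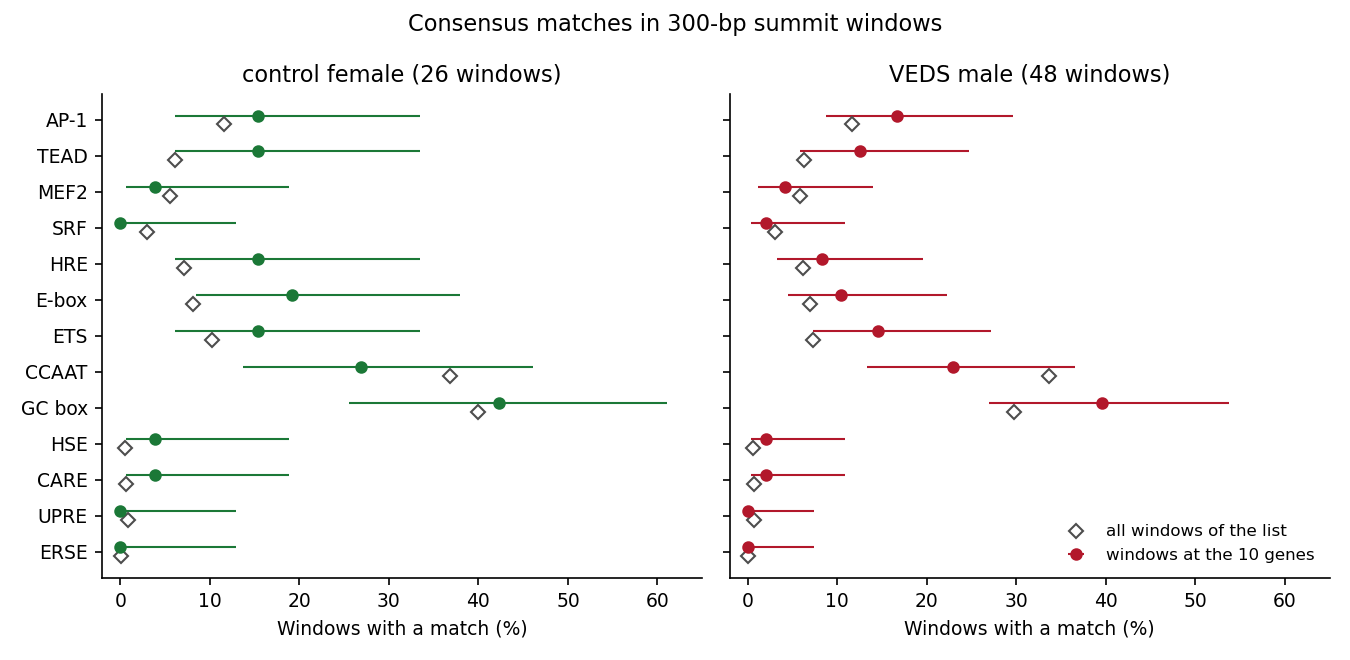
Percent of 300-bp summit windows with a match to each consensus, for the windows at the 10 genes (filled circles, bars are 95% Wilson intervals) and for all windows of the list (open diamonds). For AP-1 the circles sit at 15.4% and 16.7% and the diamonds at 11.6%, inside both intervals.

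Between genotypes, the peak counts at these genes differed within each labelled sex, and so did the lengths of the lists. In the females, the control library held 26 peaks at the 10 genes and the VEDS library 1. In the males, the control library held 0 and the VEDS library 48. The direction was thus opposite in the 2 labelled sexes. It was also the direction of the list lengths, 21176 against 504 peaks and 1236 against 41444. A missing peak at these genes in the short lists was also what most genes showed, since 95.4% of protein-coding genes had no peak in their interval in the control male list and 96.8% in the VEDS female list. For the 4 genes with a peak on their TSS in the VEDS male list alone, the fragments there were 34 (*Plod1*), 25 (*Crtap*), 43 (*Fkbp10*) and 16 (*Bmp1*). Of all VEDS male peaks on a protein-coding TSS, 78.1% had a control female counterpart, with 80.0% in rank group 2 and 12.3% in rank group 5. The peak of *Bmp1* lay in rank group 5 and the other 3 in rank group 2. Genotype, sex and depth cannot be told apart here.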

How the data were processed

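ATAC-seq peak lists of 4 aortic libraries were analyzed, each on its own. Alignment by the authors was to mm10, which is GRCm38. The lists are MACS2 narrow peaks. By the study's methods, the offset of Tn5 cuts was accounted for, barcodes were used to find duplicates, and the ENCODE blacklist was applied. The aligner and the peak threshold are not given in the sources used here. The lowest −log10 q of each list corresponded to a q of about 0.05. In the deposited lists, the score is 10 times the −log10 q without decimals, the fold enrichment is a ratio to local background within a library, and the caller's p- and q-values are given as −log10. No such value was compared between lists as a measure of accessibility.

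To recover fragments at a summit, the whole number was taken that matched the deposited fold enrichment (pseudocount 1) together with the deposited −log10 p, assuming Poisson counts. Between 99.3% and 99.9% of each list and 100% of 500 simulated peaks were recovered. Depth rests on the fragments at called summits, as library totals were not used. Peaks were ranked within a list by −log10 q.

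Genes and TSS were those of GENCODE vM21 on GRCm38. A promoter peak overlapped the 3 kb on either side of a TSS. Motifs were 17 fixed consensus sequences searched on both strands in windows of 300 bp around summits on the main chromosomes, and in 32851 RefSeq promoters of GRCm38.p6 (250 bases before to 50 after the start). The MEF2, SRF and CTCF consensus sequences are given by name. ACGTGC and the E-box CACGTG can overlap, and CCAAT is part of the ERSE. Promoter sequences were matched by symbol for 7 of 10 genes, without *Plod2*, *Fkbp10* and *Bmp1*. In simulated sequences of the letters A and T, 100% of planted AP-1 sites were found and 0% of those not planted. An AP-1 site needs a C or G, so these backgrounds could hold none. The 0% therefore says nothing on matches arising by composition in real windows. Wilson intervals are at 95% and cover counting error only.

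The 10 genes were chosen by function and without use of a measured value, though earlier results of these data were known. The lists and alternatives were also chosen with those results known. All 10 genes are named in every list. Of the 36 other genes of the pathway, those without a promoter peak in a long list, those with one in a short list, and *P3h1*, *Ppib* and *P3h4* are named. Protein-coding neighbors are named where their TSS was nearest to a peak. *Map6*, Gm45591, 4930520O04Rik and the sex-linked genes are outside this rule and were chosen after their values were seen. The software was scipy 1.17.1, numpy 2.4.6, pysam 0.24.0, pandas 2.3.3 and matplotlib 3.10.9 under Python 3.11.15.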

Additional observations from a re-analysis of the deposited data

Results flagged for a closer look

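The number of peaks at the 10 genes went in opposite directions in the 2 sexes. VEDS minus control was -25 peaks in the females (1 against 26) and 48 in the males (48 against 0). The difference was not tested, since each sex had 1 library per genotype, and it moved with the length of the lists, which were short for the VEDS female and the control male.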

How the results depend on the processing

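Of 83 alternatives over 10 results, 51 stayed within the limits set for a change, 32 moved and 0 reversed. The results were counts and shares, which have no sign to reverse, so the 0 is no measure of stability. Leaving out a library of the other genotype could not change a count, and such alternatives are among the 51. Peaks at the 10 genes numbered 26 in the control lists and 48 in the VEDS lists. Limited to the gene body they numbered 10 and 20, with 5 kb on either side 15 and 30, with 50 kb 42 and 78, and by nearest TSS 14 and 26. A −log10 q of at least 10 left 13 control peaks. With the 504 highest peaks of each list, 2 and 2 peaks remained, and 1 and 1 genes had a promoter peak, with a share found in the other genotype of 50% for the control. That share rose to 100% at a −log10 q of at least 5, of at least 10, and in the gene body. AP-1 and MEF2 windows were 0% in both long lists at equal list size, from 2 control female windows and 1 VEDS male window. They were 0% in the control female list at a −log10 q of at least 10, from 13 windows. Counts this small are not read as an absence. MEF2 was also 0% in windows over 3 kb from a TSS in both long lists, from 9 control female and 15 VEDS male windows.

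Leaving out 1 library at a time moved the control peaks between 0 and 26, the VEDS peaks between 1 and 48, the control genes with a promoter peak between 0 and 8 and the VEDS genes between 1 and 10. The control peaks found in VEDS ranged from 3.85% to 96.2%, and the VEDS peaks found in controls from 0% to 100%, the latter from 1 of 1 peak. The control female and VEDS male libraries decided these values, and without the control female library the control share could not be formed. Requiring a peak directly on a TSS, chosen after seeing the data, gave 6 and 10 genes, with no share of all protein-coding genes counted beside them. The short lists had medians of 6 (VEDS female) and 7 (control male) fragments at called summits, with lows of 3 and 4. The lows of the long lists were 5 (control female) and 7 (VEDS male). Why the short lists held few peaks was not tested, so a missing peak there is not a sign of closed chromatin.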
